A study of Homo sapiens with 28 samples.

Results

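The proteasome subunit genes were the 46 genes of 16482 in the table of all reads whose symbol is PSMA, PSMB, PSMC, PSMD, PSME, PSMF or PSMG followed by a number, without pseudogenes or antisense genes. Of these, 44 were also among the 13029 genes of the table of T>C reads, and PSMA8 and PSMB9 were not. By known role they were 7 alpha ring subunits and the testis alpha subunit PSMA8, 6 constitutive beta ring subunits, 3 immunoproteasome beta subunits, 6 ATPases and 11 non-ATPase subunits of the regulatory particle, 7 assembly chaperones, 4 activators and 1 inhibitor. The proteasome is the protease that degrades ubiquitin-tagged proteins: a barrel of alpha and beta rings holds the catalytic sites, and a cap with an ATPase ring unfolds substrates and feeds them in. Every proliferating cell needs it, its subunits are built in fixed proportions, and their genes are known targets of the transcription factor NFE2L1. It is also the machine through which VHL-based degraders act, since the ubiquitin ligase VHL marks their target proteins for it.

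The study treated MDA-MB-453, a human breast cancer cell line of luminal and HER2 type, for 3 h and measured polyadenylated RNA by SLAMseq. In SLAMseq, 4-thiouridine (4sU, here 0.1 mM for the last 60 min) enters new RNA, and after alkylation it is read as T>C mismatches, so T>C reads report RNA made during the labelling. The treatments were JQ1-VHL, IBET151-VHL, JQ1, IBET151 and DMSO, the solvent control, and all cells, DMSO included, had received 4sU. JQ1 and IBET151 are inhibitors of BET proteins, the bromodomain readers of acetylated chromatin that promote transcription, and the VHL compounds join such an inhibitor to a ligand of VHL so that BET proteins are degraded. Doses are not in the labels, so compounds are set side by side at their common time only. Cells permeabilised with digitonin were split into a nuclear pellet and a cytoplasmic supernatant, with 3 libraries in each treatment and fraction except 2 for IBET151, 28 libraries in 10 groups. It is 1 cell line, and the labels do not say whether replicates were separate cultures, so p-values measure the spread between these libraries, which may be technical.

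Nuclear libraries held 17851589 to 38658448 reads, of which 214725 to 1928012 were T>C reads, and cytoplasmic libraries held 30647584 to 68475299 reads, of which 82264 to 379401 were T>C reads. The deposited values are signals scaled to ERCC spike-in RNA, which was added per mass of RNA and not per cell, so a common change of RNA per cell need not show in them, and fewer cells and less RNA per cell cannot be told apart. The luminal and HER2 markers ERBB2, FOXA1, GATA3, SPDEF, KRT8, KRT18 and KRT19 were all present, with sums of 94725 to 163049 in cytoplasmic libraries. Of 6 markers of other cell types 4 were in the table, with sums of 1172 to 2502 in cytoplasmic and 1483 to 6660 in nuclear libraries, mostly COL1A1. The nuclear RNA MALAT1 averaged 38870 ± 17987 in DMSO nuclear and 2138 ± 938 in DMSO cytoplasmic libraries (SD, n = 3 each). MYC, a textbook BET target, averaged 7.18 ± 3.22 with JQ1-VHL, 10.0 ± 2.90 with IBET151-VHL and 171 ± 88.3 with DMSO in the cytoplasm (SD, n = 3 each). Some nuclear libraries stood apart: replicate 1 had the lowest summed proteasome signal of its group for JQ1, JQ1-VHL, IBET151-VHL and DMSO (105633 to 157167, against 331761 to 733665 in replicates 2 and 3 of those treatments). The summed signal of all genes was low in the same libraries (13857990 to 22303955, against 38469232 to 67900669). In replicate 3 only 1.94% of JQ1 and 2.25% of DMSO nuclear reads were T>C reads, against 5.69% and 6.67% in the other JQ1 and 6.34% and 8.02% in the other DMSO nuclear libraries. The 2 low libraries came from a run of library numbers that held only JQ1 and DMSO.

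Promoter sequence is shown first, for 4 genes whose nuclear T>C reads fell with IBET151-VHL. The windows run from 250 bases before to 50 after the start site, on the gene's strand, and come from RefSeq on GRCh38.p14, where 40 of the 46 genes had an entry. PSMC4 encodes an ATPase of the cap, PSMD12 and PSMD7 non-ATPase subunits and PSME2 a subunit of the 11S activator. Capitals mark motif matches: TGACNNNGC, the core of the antioxidant response element that NFE2L1 and NFE2L2 bind, in PSMC4 (as its reverse complement), PSMD12 and PSME2; CCGGAAG, an ETS-family motif, in PSMD12 (as its reverse complement) and PSMD7; and CCAAT in PSMD7.
PSMC4, chr19:39970915-39971214, plus strand: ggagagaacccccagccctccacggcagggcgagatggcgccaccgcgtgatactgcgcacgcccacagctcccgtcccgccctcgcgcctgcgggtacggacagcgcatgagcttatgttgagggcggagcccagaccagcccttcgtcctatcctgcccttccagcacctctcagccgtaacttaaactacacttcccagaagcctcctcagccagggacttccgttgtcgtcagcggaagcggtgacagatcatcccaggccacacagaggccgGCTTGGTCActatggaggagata
PSMD12, chr17:67366528-67366827, minus strand: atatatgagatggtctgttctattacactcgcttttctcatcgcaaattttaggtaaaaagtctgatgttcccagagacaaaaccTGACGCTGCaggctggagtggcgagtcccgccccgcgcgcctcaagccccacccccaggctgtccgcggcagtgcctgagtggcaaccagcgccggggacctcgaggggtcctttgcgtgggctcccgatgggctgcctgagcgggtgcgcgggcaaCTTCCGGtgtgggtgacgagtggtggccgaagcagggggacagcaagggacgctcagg
PSME2, chr14:24146561-24146860, minus strand: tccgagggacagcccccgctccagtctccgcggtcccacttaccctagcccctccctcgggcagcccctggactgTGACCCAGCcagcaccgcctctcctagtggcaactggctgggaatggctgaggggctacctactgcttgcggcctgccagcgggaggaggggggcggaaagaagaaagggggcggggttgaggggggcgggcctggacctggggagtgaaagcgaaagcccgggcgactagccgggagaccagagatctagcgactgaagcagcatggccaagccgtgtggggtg
PSMD7, chr16:74296564-74296863, plus strand: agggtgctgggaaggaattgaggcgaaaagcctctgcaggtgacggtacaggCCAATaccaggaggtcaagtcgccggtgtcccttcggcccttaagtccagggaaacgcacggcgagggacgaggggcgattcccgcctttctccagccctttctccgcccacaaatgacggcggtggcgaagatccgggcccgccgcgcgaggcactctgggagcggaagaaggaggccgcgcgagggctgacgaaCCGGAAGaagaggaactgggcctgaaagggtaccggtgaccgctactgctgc

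Searched on both strands, TGACNNNGC was in 12 of the 40 proteasome promoters (30%) and in 13.3% of all 35116 promoters of the same length. CCGGAAG was in 13 (32.5%) and in 10.3% of all. CCAAT was in 17 (42.5%) and in 34.6% of all, the E-box CACGTG in 2 (5%) and in 7.26% of all, and the palindromic NRF1 motif in 1, PSMA4 (2.5%), and in 1.24% of all. In the promoters shown no motif overlapped another. These are counts of letters with no test, and neighbouring genes can share a promoter.

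In untreated cells the proteasome was a well covered gene set in both fractions. DMSO cytoplasmic means (values scaled to ERCC RNA, counted at transcript 3′ ends and not divided by length) ran from 2.21 for PSMA8 to 31112 for PSMA7, an alpha ring subunit, with a median of 6517 over the 46 genes. The catalytic subunits averaged 11650 ± 1663 for PSMB5 (chymotrypsin-like site), 9210 ± 1243 for PSMB6 (caspase-like site) and 15146 ± 2415 for PSMB7 (trypsin-like site). Their interferon-inducible counterparts were listed at 476 ± 226 for PSMB8, 76.6 ± 40.4 for PSMB9 and 2223 ± 285 for PSMB10 (SD, n = 3 each). PSMB8 and PSMB9 overlap on opposite strands in the GENCODE annotation of GRCh38, PSMB9 also overlaps TAP1, and whether counting used strand is not stated, so reads of such neighbours cannot be told apart. Together the 46 genes took 1.24 ± 0.036% of cytoplasmic reads with JQ1-VHL, 1.23 ± 0.031% with IBET151-VHL, 1.17 ± 0.046% with JQ1, 1.15% and 1.20% in the 2 IBET151 libraries, and 1.20 ± 0.056% with DMSO. The range of every treated group overlapped that of DMSO.

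Of all reads in the cytoplasm, those of 1 proteasome gene changed after 3 h of treatment. The assembly chaperone gene PSMG3, whose protein pairs with PSMG4 to help build the alpha ring, was lower with all 4 compounds. Of the 45 proteasome genes tested (PSMA8 was below the minimum), 1 was lower and 0 higher in each comparison. Over all 12470 genes tested, 12.9% were called with JQ1-VHL, 15.8% with IBET151-VHL, 4.82% with JQ1 and 2.52% with IBET151, in either direction (limma on log2(value + 1), Benjamini-Hochberg adjusted p under 0.05). The median log2 change of the 45 genes was -0.05 with JQ1-VHL, -0.02 with IBET151-VHL, -0.03 with JQ1 and 0.11 with IBET151, beside -0.17, -0.15, -0.13 and 0.00 over all genes.

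PSMG3 was read at 5127, 5672 and 6131 in the JQ1-VHL libraries, 4528, 4994 and 5622 with IBET151-VHL, 5650, 5582 and 5949 with JQ1, 5723 and 6604 with IBET151, and 10508, 8840 and 8946 with DMSO. Every treated library lay below every DMSO library. The log2 change was -0.74 ± 0.13 (SE) with JQ1-VHL (limma adjusted p = 0.00187), -0.90 ± 0.13 with IBET151-VHL (0.00025), -0.72 ± 0.13 with JQ1 (0.00693) and -0.61 ± 0.15 with IBET151 (0.0444). All 4 comparisons share the DMSO libraries. PSMG3 overlaps the antisense gene PSMG3-AS1, whose reads cannot be told apart from it if counting ignored strand. With median-ratio scaling in place of ERCC scaling the adjusted p was 0.0102 with IBET151-VHL but 0.057 with JQ1-VHL, 0.061 with JQ1 and 0.0766 with IBET151. When each comparison was fitted alone it was 0.0255 with JQ1-VHL, 0.00889 with IBET151-VHL, 0.115 with JQ1 and 0.49 with IBET151. The IBET151 call was also lost by leaving out any single cytoplasmic library except DMSO replicates 2 and 3. Without DMSO replicate 2 the number of genes called was 3 with JQ1-VHL, 3 with IBET151-VHL and 2 with IBET151.

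**Figure D1:**
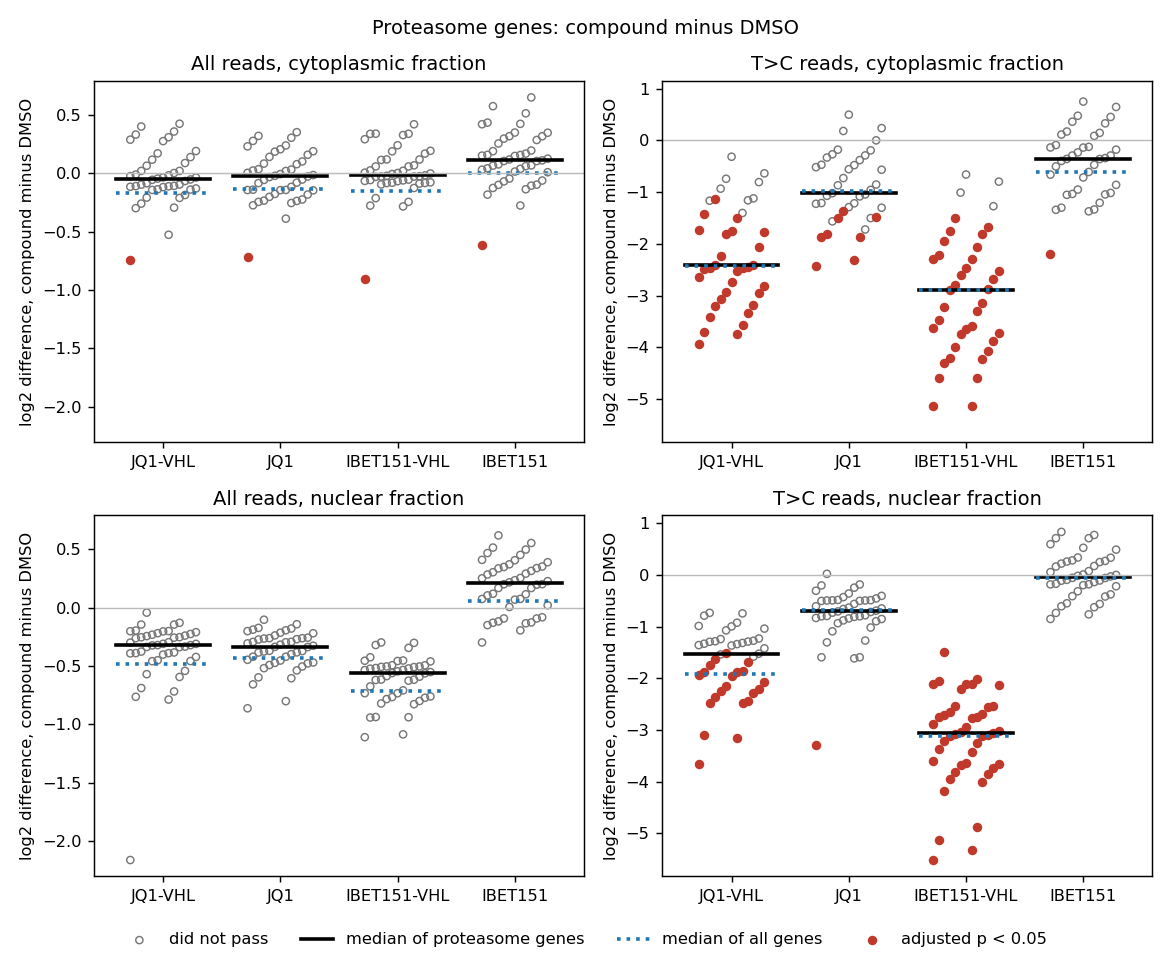
Log2 change of each proteasome gene against DMSO, for all reads (left) and T>C reads (right) in the cytoplasm (top) and nucleus (bottom); each point is 1 gene, filled where it passed, with lines at the medians of proteasome genes (solid) and all genes (dotted). PSMG3 is the 1 filled point of each compound in cytoplasmic all reads, at -0.61 to -0.90, and cytoplasmic T>C medians are -2.42 with JQ1-VHL and -2.88 with IBET151-VHL.

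No other member passed. The catalytic gene PSMB5 was read at 9832, 11023 and 11245 with JQ1-VHL, 11041, 10794 and 10669 with IBET151-VHL, 10636, 10617 and 8237 with JQ1, 11674 and 11610 with IBET151, and 11803, 13230 and 9915 with DMSO. Treated and control libraries overlap, and the log2 changes were -0.12, -0.09, -0.25 and 0.01. For PSMB6 they were -0.05 with JQ1-VHL, 0.00 with IBET151-VHL, -0.14 with JQ1 and 0.07 with IBET151, and for PSMB7 -0.11, -0.13, -0.18 and -0.05. The alpha ring had medians of 0.28, 0.24, 0.16 and 0.35 and the cap ATPases -0.10, -0.07, -0.15 and -0.03, in the same order of compounds. The closest to passing were PSMG4, the partner of PSMG3, with JQ1-VHL (-0.30, adjusted p = 0.26), PSMD7, a cap subunit, with JQ1 (-0.39, 0.261), and PSMD10, the assembly chaperone gankyrin, with JQ1-VHL (0.40, 0.312) and IBET151 (0.58, 0.324). The 95% interval of the change lay within 1 log2 unit on both sides for 42 of the 45 genes with JQ1-VHL, 43 with IBET151-VHL, 43 with JQ1 and 39 with IBET151. The count of calls depended on scaling: with median-ratio scaling 2 genes were higher and 0 lower with JQ1-VHL, and 4 higher and 1 lower with IBET151-VHL. Shares of all genes called under that scaling are not given, so these counts are no result about proteasome genes.

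Between the compounds no proteasome gene passed the test in all reads of the cytoplasm. For 3 pairs the count was 0 of 45: JQ1-VHL against JQ1, IBET151-VHL against IBET151 and JQ1-VHL against IBET151-VHL, where 4.23%, 7.91% and 0.016% of all genes were called. Unadjusted p was under 0.05 for 0 genes in each pair, and edgeR and DESeq2 called 0. PSMG3 differed by -0.02 between JQ1-VHL and JQ1 (95% interval -0.31 to 0.26), by -0.29 between IBET151-VHL and IBET151 (-0.61 to 0.03) and by 0.16 between JQ1-VHL and IBET151-VHL (-0.12 to 0.45). The largest difference of JQ1-VHL from JQ1 was in PSMB9, at -0.80 (-1.69 to 0.08). It was read at 40.9, 52.5 and 50.5 with JQ1-VHL and 70.7, 60.3 and 139 with JQ1, 37.8, 73.5 and 118 with DMSO, so the groups do not overlap between the compounds, but JQ1-VHL lies inside the DMSO range.

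**Figure D2:**
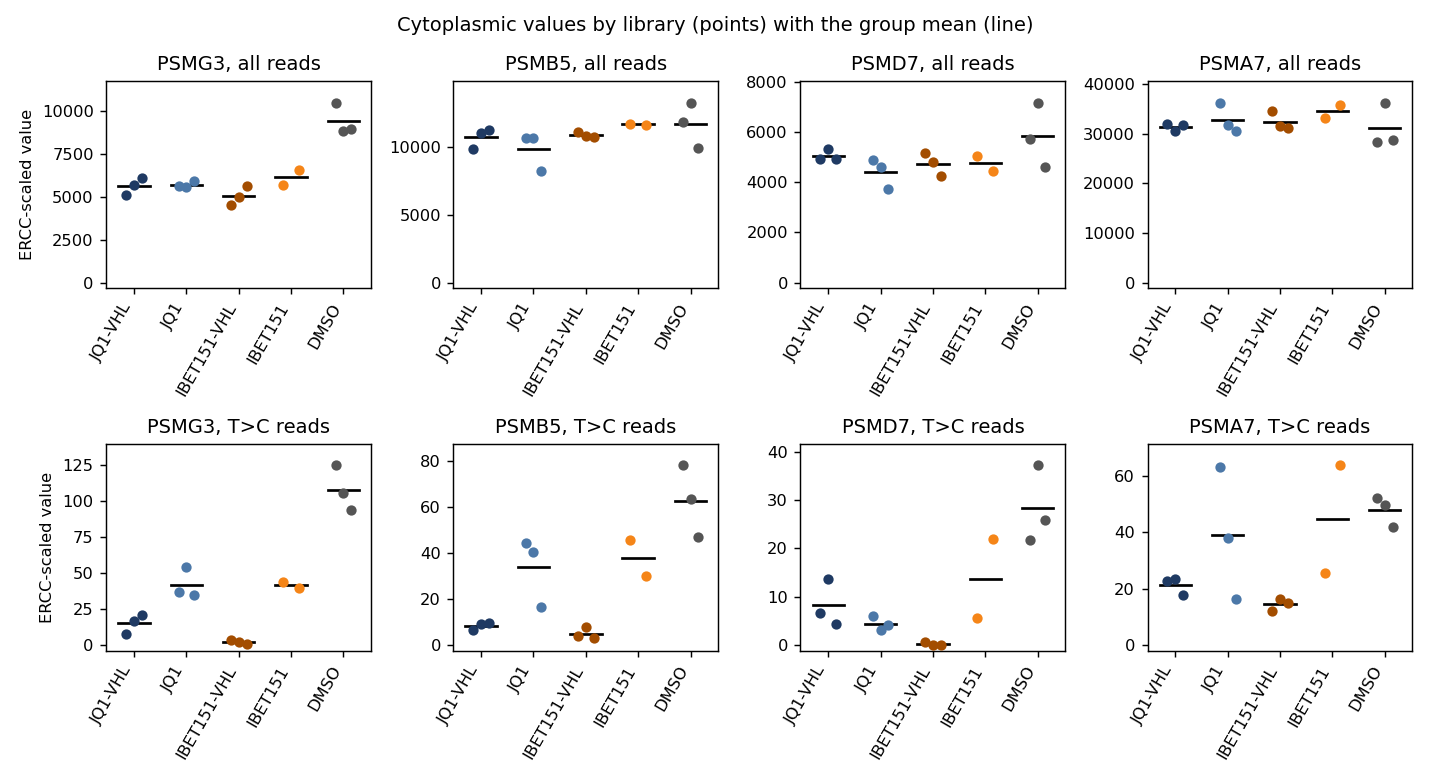
ERCC-scaled values of PSMG3, PSMB5, PSMD7 and PSMA7 in every cytoplasmic library, all reads above and T>C reads below; each point is 1 library and the line is the group mean. PSMG3 all reads lie between 4528 and 6604 in treated libraries and between 8840 and 10508 with DMSO, while PSMB5 all reads overlap between treated and DMSO libraries.

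T>C reads were a small part of the cytoplasmic proteasome reads even without compound. In DMSO cytoplasm the 44 genes had 0.273 ± 0.0335% T>C reads in all (SD, n = 3), and per gene a median of 0.297%, beside 0.642% over all 9385 genes with at least 500 reads. PSMG3 had the highest share, 1.14 ± 0.083% (461 T>C reads of 40815), followed by the cap assembly chaperones PSMD5 at 1.06 ± 0.18% and PSMD10 at 1.04 ± 0.34%. The other 41 genes were under 1%. The ATPase gene PSMC5 had 0.0196% (25 reads of 123843), and PSMB10 and PSME2 had 0 of 9926 and 0 of 29021 reads, which allows shares of up to 0.0302% and 0.0103% by counting error alone. No library without 4sU is in the series, so the part of these low shares that is sequencing error is not known.

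With the VHL compounds these T>C reads fell in every role group tested. In the cytoplasm 30 of the 39 genes tested were lower with JQ1-VHL and 35 with IBET151-VHL, 8 with JQ1 and 1 with IBET151, and 0 were higher with any. PSMA1 reached the minimum of 5 only in DMSO libraries, so a fall was built into its selection; without it 30 of 38 genes were lower with JQ1-VHL and 34 with IBET151-VHL. With PSMD6, which needed a JQ1 or IBET151 library to reach it, also left out, 7 of 37 were lower with JQ1 and 1 with IBET151. Over all 6300 genes tested 82.8% were lower with JQ1-VHL, 88.3% with IBET151-VHL, 20.1% with JQ1 and 6.76% with IBET151, so the shares of proteasome genes were near those of all genes. Medians were near them too: -2.42 against -2.42 over all genes with JQ1-VHL, -2.88 against -2.89 with IBET151-VHL, -1.02 against -0.97 with JQ1 and -0.36 against -0.60 with IBET151. With PSMC3 (0 of 25712 reads) set to its bound, the IBET151-VHL median was -3.15. Leaving out libraries left the JQ1 count at 1 without DMSO replicate 1 or 2, at 5 without JQ1 replicate 1 or 2 and at 2 without JQ1 replicate 3. The IBET151 call, PSMB7, was lost without any of 11 of the 14 cytoplasmic libraries.

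By role, JQ1-VHL lowered T>C reads of 4 of 7 alpha ring genes, 5 of 6 beta ring genes, 5 of 6 ATPases, 8 of 11 non-ATPases, 5 of 6 assembly chaperones, both activators tested and the inhibitor gene PSMF1. With IBET151-VHL the counts were 7 of 7, 6 of 6, 6 of 6, 8 of 11, 5 of 6, both activators and PSMF1. Among the genes that did not pass were PSMD13 (-0.32 with JQ1-VHL, -0.66 with IBET151-VHL), PSMG2 (-0.81 and -1.27), PSMC2 and PSMB4 with JQ1-VHL (-0.64 and -0.74), and PSMD2 and PSMD6 with IBET151-VHL (-0.80 and -1.01). Some had few T>C reads to lose. The DMSO cytoplasmic libraries held 3, 4 and 4 of PSMD6, 5, 10 and 1 of PSMD2 and 11, 8 and 5 of PSMG2. For these 3 genes a fall was hard to detect, so not passing does not show that they were spared. Under median-ratio scaling, which moved the median of all genes to -0.69 with JQ1-VHL and -1.08 with IBET151-VHL, 1 of the 38 genes tested was lower with JQ1-VHL, and 10 were lower and 3 higher with IBET151-VHL. Shares of all genes called under that scaling are not given, so these counts show only the dependence on scaling.

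Among single genes, PSMG3 had T>C values of 8.05, 17.2 and 20.8 with JQ1-VHL, 4.04, 2.59 and 0.597 with IBET151-VHL, 36.6, 54.0 and 34.8 with JQ1, 43.8 and 40.1 with IBET151, and 125, 106 and 93.6 with DMSO. No treated library reached the DMSO range. Its log2 change was -2.82 ± 0.47 with JQ1-VHL (adjusted p = 1.02e-05), -5.14 ± 0.47 with IBET151-VHL (3.63e-10), -1.37 ± 0.47 with JQ1 (0.0393) and -1.34 ± 0.53 with IBET151 (0.118, not passing). The catalytic PSMB5 had T>C values of 6.70, 9.06 and 9.66 with JQ1-VHL, 4.04, 7.78 and 2.98 with IBET151-VHL, 44.3, 40.5 and 16.8 with JQ1, 45.7 and 30.1 with IBET151, and 78.1, 63.3 and 47.1 with DMSO. Both VHL groups lay below all others, at -2.74 ± 0.48 and -3.48 ± 0.48, while JQ1 (-0.96) and IBET151 (-0.72) did not pass. PSMB6 fell by 3.58 and PSMB7 by 3.74 on the log2 scale with JQ1-VHL, and by 3.99 and 3.88 with IBET151-VHL.

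The cap gene PSMD7, encoding a scaffold subunit of the deubiquitinase module, separated the VHL compounds. Its T>C values were 6.70, 13.6 and 4.46 with JQ1-VHL, 0.673, 0 and 0 with IBET151-VHL, 5.96, 3.17 and 4.11 with JQ1, 5.71 and 21.9 with IBET151, and 21.7, 37.1 and 25.9 with DMSO. The 1 read of 20324 with IBET151-VHL gave 0.00997 times the DMSO share, with a 95% counting interval of 0.00025 to 0.0566. Further large falls with IBET151-VHL were in the cap genes PSMD3 (-5.13), PSMD12 (-4.59), PSMD11 (-4.31) and PSMD1 (-4.23). With JQ1-VHL they were in PSME3, the nuclear activator (-3.93, 1 read of 10096, 0.0159 times the DMSO share, interval 0.000397 to 0.0912), PSMD3 (-3.70), PSMD5 (-3.42) and PSMA3 (-3.34). With JQ1 the largest were PSMD7 (-2.43, adjusted p = 0.00538), the activator gene PSME4 (-1.87), PSMD11 (-1.86), PSMD5 (-1.81) and PSMC6 (-1.50). With IBET151 PSMB7 passed (-2.20, adjusted p = 0.0494). Of the cap genes named, IBET151-VHL libraries held few T>C reads: 0, 0 and 4 of PSMD3, 3, 1 and 1 of PSMD12. For PSMD11 they held 4, 0 and 1, and for PSMD1 0, 5 and 1. JQ1-VHL libraries held 1 to 5 of PSMD3, PSMD5 and PSMA3. At such counts the log2 change depends on the added 1 and the DMSO value, so the order of genes is no result. The IBET151-VHL median was -2.88 in limma, -3.86 in edgeR and -4.10 in DESeq2.

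The T>C share of a gene's own reads, as a percentage, does not depend on the scaling between libraries, and it fell in the same way. The gene-by-gene test added 1 to the scaled values, so at low T>C values the tested share still depended on the scale. Over the 44 genes it was 0.0528 ± 0.0129% with JQ1-VHL, 0.0247 ± 0.00131% with IBET151-VHL, 0.145 ± 0.0249% with JQ1 and 0.273 ± 0.0335% with DMSO in the cytoplasm (SD, n = 3 each), and 0.156% and 0.19% in the 2 IBET151 libraries. No treated library reached the lowest DMSO value, 0.235%. Within the first run of library numbers the share was 0.038% with JQ1-VHL, 0.0257% with IBET151-VHL and 0.14% with JQ1, against 0.299% with DMSO, and within the next 0.0617%, 0.0252% and 0.172%, with IBET151 at 0.156%, against 0.286%. In both runs the VHL compounds lay below JQ1 and DMSO. In the next run they also lay below IBET151, which the first run did not hold. Tested gene by gene, the share was lower for 32 of 39 genes with JQ1-VHL and 36 with IBET151-VHL, 4 with JQ1 and 0 with IBET151, beside 75.9%, 81.9%, 8.94% and 3.76% of all genes. With IBET151, 4 genes had an unadjusted p under 0.05, PSMB7 closest (-2.15, adjusted p = 0.0558), and 1 gene passed without JQ1-VHL replicate 2 or 3. Medians were -2.32 against -2.09 over all genes with JQ1-VHL and -2.94 against -2.50 with IBET151-VHL. The genes with JQ1 were PSMD11 (-2.10), PSMD7 (-2.04), PSMB2 (-1.58) and PSMA1, which had entered through DMSO libraries; without PSMA1 the counts were 31 and 35 of 38 with the VHL compounds and, without PSMD6 too, 3 of 37 with JQ1. The JQ1 count of 4 fell to 0 without DMSO replicate 1 or 2 and to 2 without DMSO replicate 3 or any JQ1 replicate.

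As a share of all T>C reads in the cytoplasm, the proteasome genes took 0.224 ± 0.0347% with JQ1-VHL, 0.123 ± 0.0135% with IBET151-VHL, 0.313 ± 0.0513% with JQ1, 0.325% and 0.333% with IBET151, and 0.421 ± 0.0515% with DMSO. Both VHL groups and both IBET151 libraries lay below the lowest DMSO library, 0.363%. The JQ1 libraries were at 0.312%, 0.364% and 0.262%, so a low share was not particular to the VHL compounds. All cytoplasmic reads together had 0.262% to 0.302% T>C reads with JQ1-VHL, 0.235% to 0.26% with IBET151-VHL and 0.747% to 0.818% with DMSO.

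**Figure D3:**
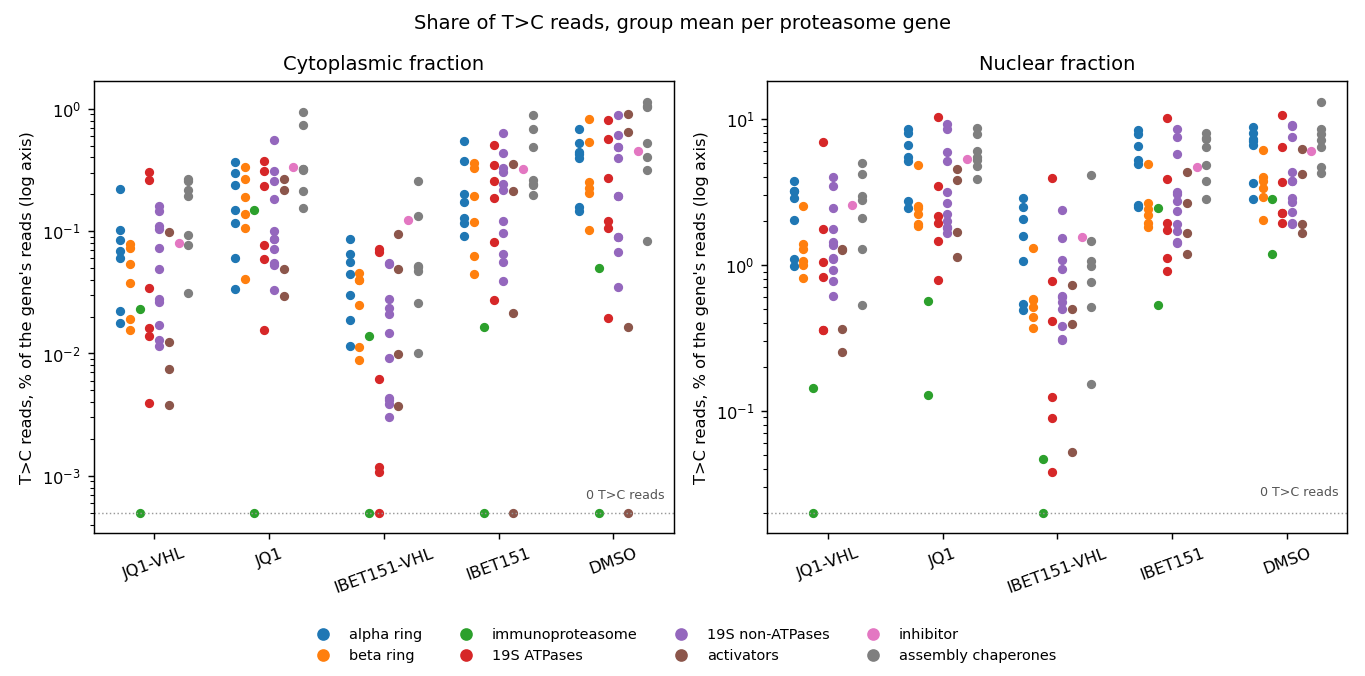
T>C reads as a percentage of each proteasome gene's reads (log axis), as the mean of each treatment group; each point is 1 gene, coloured by role, with the cytoplasmic fraction left and the nuclear fraction right, and genes with 0 T>C reads on the dotted line. In the cytoplasm the medians are 0.0566% with JQ1-VHL and 0.0259% with IBET151-VHL, against 0.297% with DMSO.

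Set against their parents, the VHL compounds had fewer T>C reads of most proteasome genes in the cytoplasm. Of 39 genes 21 were lower with JQ1-VHL than with JQ1 (46.5% of all genes lower) and 32 with IBET151-VHL than with IBET151 (69.1% of all genes lower), and 0 were higher. PSMD6 needed a JQ1 or IBET151 library to be tested; without it the counts were 20 and 32 of 38. The count against JQ1 was 13 without JQ1 replicate 2, and that against IBET151 21 without IBET151 replicate 2. Against JQ1 the largest differences were in the catalytic genes PSMB7 (-2.52 ± 0.62, adjusted p = 0.00216) and PSMB6 (-2.49), then PSMA5 (-2.37), PSME3 (-2.36), PSMA3 (-2.30) and PSMB1 (-2.25). Against IBET151 they were in cap and assembly genes: PSMD12 (-4.23 ± 0.68, adjusted p = 8.19e-06), PSMD3 (-4.12), PSMD11 (-3.91), PSMD9 (-3.84), PSMG3 (-3.80) and PSMD1 (-3.62). Each IBET151-VHL library held 0 to 6 T>C reads of each of these genes, so their order is no result. Under median-ratio scaling 0 genes passed against JQ1, and 3 were lower and 1 higher against IBET151. The percentages of all genes above are from ERCC scaling, so these counts cannot be set against them. Between the VHL compounds, JQ1-VHL had more T>C reads than IBET151-VHL for PSMD7 (2.84 ± 0.58) and PSMG3 (2.32 ± 0.47), both with adjusted p = 0.00732, where 3.03% of all genes were higher. That count of 2 was 6 without JQ1-VHL replicate 1, 4 without IBET151-VHL replicate 1 and 1 without JQ1-VHL replicate 2.

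In the nuclear fraction the pool of all reads showed no called change in the fit without a block. With a block some genes passed, as given below. The count was 0 of 46 for each compound, where 1.97% of all genes were called with JQ1-VHL, 4.55% with IBET151-VHL, 0.0694% with JQ1 and 0.0971% with IBET151. Unadjusted p was under 0.05 for 1 gene with JQ1-VHL and 0 with the others. Also without a block, edgeR called 1 gene for JQ1-VHL and 0 for the others, and DESeq2 called 0. That gene was PSMB9, at 9.38, 20.8 and 17.8 with JQ1-VHL and 25.0, 61.9 and 232 with DMSO. The groups do not overlap but the DMSO libraries are far apart (-2.16 ± 0.76, adjusted p = 0.144). It passed in edgeR and when replicate 1 of DMSO, JQ1 or IBET151-VHL was left out of the limma fit. Medians were -0.32 with JQ1-VHL, -0.56 with IBET151-VHL, -0.34 with JQ1 and 0.21 with IBET151, beside -0.48, -0.71, -0.43 and 0.05 over all genes. With the replicate number as a block 2 genes were lower with JQ1-VHL and 14 with IBET151-VHL. Same-numbered libraries deviated together, but replicate 3 of these compounds came from another run of library numbers than replicate 3 of DMSO. With a block for the runs of library numbers 5 were lower with JQ1-VHL, 24 with IBET151-VHL, 13 with JQ1 and 7 with IBET151. The percentages of all genes above come from the fit without a block, so the blocked counts cannot be set against them.

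T>C reads of proteasome genes in the nucleus fell throughout the complex with IBET151-VHL, by a median near that of all genes. PSMB8 and PSMB10 reached the minimum of 5 only through DMSO libraries, so a fall was built into their selection and they are described apart. Of the other 42 genes 42 were lower with IBET151-VHL and 19 with JQ1-VHL, 0 with JQ1 and 0 with IBET151, beside 83.9%, 60.5%, 2.29% and 0.987% of all 12059 genes lower. Unadjusted p was under 0.05 for 1 of the 42 with JQ1 and 0 with IBET151, and edgeR and DESeq2 called 0. Medians of the 42 were -3.05 against -3.12 over all genes with IBET151-VHL, -1.52 against -1.92 with JQ1-VHL, -0.68 against -0.67 with JQ1 and -0.02 against -0.07 with IBET151. Leaving out either JQ1-VHL replicate 1 or DMSO replicate 2 left 6 of all 44 genes called for JQ1-VHL, where 21 were called with every library. With a block for the runs of library numbers 42 of 44 were lower with JQ1-VHL and 44 with IBET151-VHL. The share of all genes under that block is not given, so these counts are no result about proteasome genes. Median-ratio scaling moved the median of all genes to -0.25 with JQ1-VHL and -0.47 with IBET151-VHL. It left 2 genes lower and 3 higher with JQ1-VHL, and 8 lower and 4 higher with IBET151-VHL. Shares of all genes called under that scaling are not given either.

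With IBET151-VHL the largest falls were in the ATPase gene PSMC1 (-5.51 ± 0.71, adjusted p = 7.03e-13), the assembly chaperone PSMG1 (-5.31), PSMC3 (-5.12), the activator PSME1 (-4.87), PSMC4 (-4.19) and PSMD5 (-4.00). PSMC1 was read at 3.88, 6.92 and 8.96 with IBET151-VHL, 32.8, 169 and 116 with JQ1-VHL and 274, 614 and 216 with DMSO. The 3 groups do not overlap. With IBET151-VHL, PSMG1 had 0, 0 and 4 nuclear T>C reads and PSMC3 0, 2 and 2, so the size of these falls depends on the added 1. With JQ1-VHL the largest of the 42 were PSMG1 (-3.10), PSME1 (-2.47), PSMC4 (-2.47), PSMC3 (-2.43), PSMG3 (-2.36) and PSME4 (-2.28). By role JQ1-VHL lowered 2 of 7 alpha ring genes, 2 of 6 beta ring genes, 4 of 6 ATPases, 3 of 11 non-ATPases, 4 of 7 assembly chaperones and 4 of 4 activators, and PSMF1 (-1.32) did not pass. PSMB5 fell by 2.20 on the log2 scale with JQ1-VHL, where PSMB6 (-1.52) and PSMB7 (-1.27) did not pass, and with IBET151-VHL the 3 catalytic genes fell by 3.73, 3.68 and 3.21.

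The immunoproteasome genes and the 11S activator were read from few T>C reads, and the values of PSMB8 and PSMB10 are a description, since both entered through DMSO. PSMB8 had 0, 1 and 0 nuclear T>C reads with JQ1-VHL, 0, 0 and 0 with IBET151-VHL, 0, 1 and 0 with JQ1, 5 and 2 with IBET151, and 6, 10 and 8 with DMSO. JQ1, JQ1-VHL and IBET151-VHL libraries all lay below DMSO. The IBET151-VHL group, with 0 of 642 reads, was at least 8.13-fold lower at a floor of 3 counts over the group, and the single JQ1 read gave 0.0413 times the DMSO share with a 95% counting interval of 0.001 to 0.253. PSMB10 had 0 of 1677 reads with JQ1-VHL, at least 8.53-fold lower at the same floor. PSME1 had 2, 15 and 13 nuclear T>C reads with JQ1-VHL, 1, 4 and 0 with IBET151-VHL, 46, 60 and 26 with JQ1, 51 and 47 with IBET151, and 61, 73 and 24 with DMSO. In these unscaled counts the VHL groups lay below and the parents overlapped DMSO. As a share of its own reads, JQ1-VHL overlapped DMSO too. Scaled T>C values were 28.4 of 8202 and 28.9 of 8710 in JQ1-VHL replicates 2 and 3, and 46.0 of 15179 in DMSO replicate 3.

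**Figure D4:**
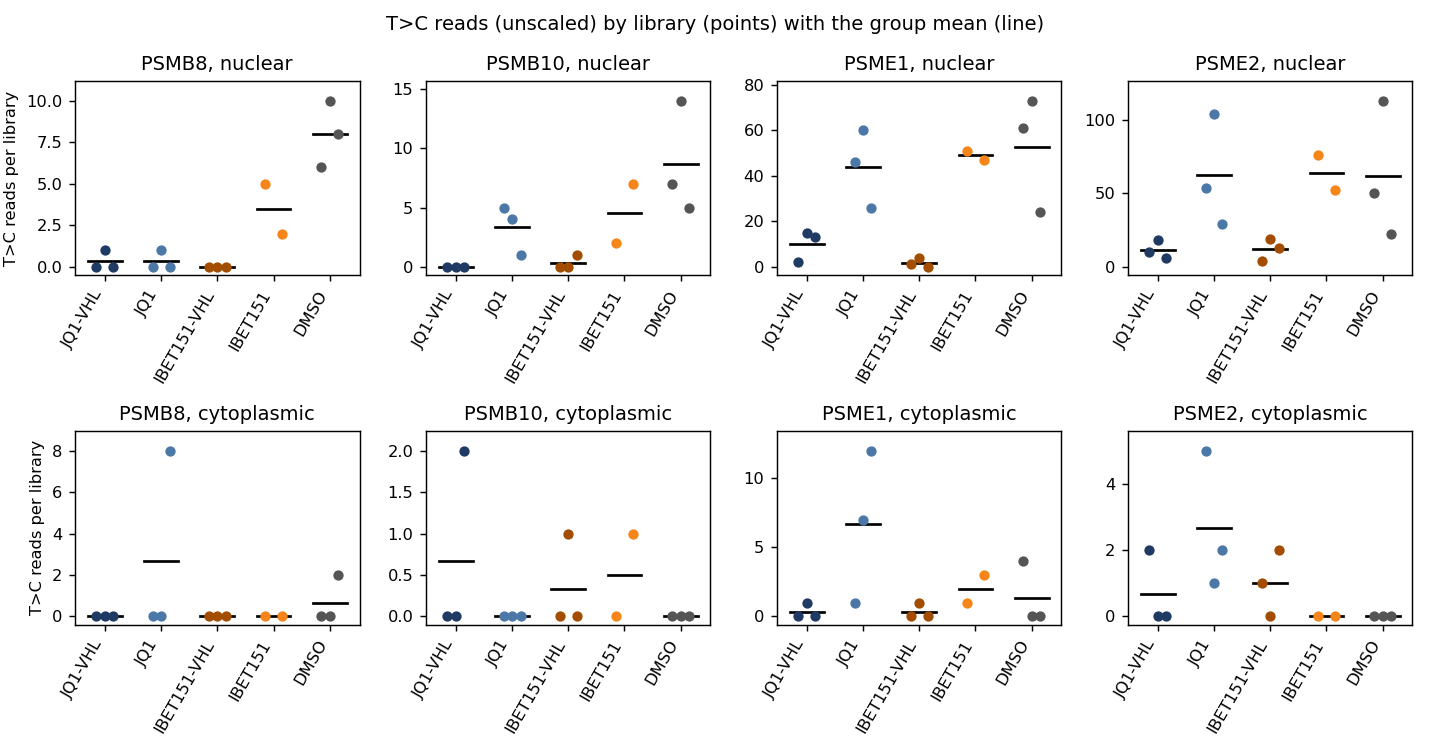
T>C reads of PSMB8, PSMB10, PSME1 and PSME2 in each library, nuclear above and cytoplasmic below; each point is 1 library and the line is the group mean. In the nucleus PSMB8 and PSMB10 show 0 or 1 read with the VHL compounds against 5 to 14 with DMSO, and PSME1 shows 0 to 15 against 24 to 73.

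In the nuclear T>C share 35 of 44 genes were lower with IBET151-VHL (33 of 42 without PSMB8 and PSMB10), beside 65.4% of all genes. With JQ1-VHL 2 were lower (PSMC4, -2.33, and PSMC3, -2.17), beside 13.8% of all genes. With a block for the runs of library numbers 44 were lower with IBET151-VHL and 39 with JQ1-VHL, but the percentages of all genes are from the fit without it. With JQ1 and IBET151 the count was 0, beside 0.0249% and 0.0664% of all genes lower. Unadjusted p was under 0.05 for 0 genes with IBET151. With JQ1 it was so for 1 of PSMB8 and PSMB10, whose fall was built into their selection, and for 0 of the other 42 genes. The tools edgeR and DESeq2 do not apply to a ratio. Pooled over the genes the share was 1.44%, 1.68% and 1.28% with JQ1-VHL, 1.10%, 0.69% and 0.37% with IBET151-VHL, 5.04%, 3.70% and 0.885% with JQ1, 3.68% and 2.07% with IBET151, and 6.33%, 4.59% and 1.11% with DMSO. The low DMSO library lies below all 3 JQ1-VHL libraries and just above the highest IBET151-VHL library. Within the first run of library numbers the share was 1.44% with JQ1-VHL, 1.10% with IBET151-VHL and 5.04% with JQ1, against 6.33% with DMSO. Within the next it was 1.68%, 0.69% and 3.70%, and 3.68% with IBET151, against 4.59%. The run that held DMSO replicate 3 had no library of a VHL compound or IBET151. For JQ1-VHL the number of genes called became 25 without DMSO replicate 3, 6 without JQ1 replicate 3, 4 without JQ1 replicate 1, 1 without IBET151-VHL replicate 2 and 0 without DMSO replicate 1 or 2, JQ1 replicate 2, IBET151-VHL replicate 1, any JQ1-VHL replicate or either IBET151 replicate. The IBET151-VHL count was 17 without DMSO replicate 1, 19 without DMSO replicate 2 and 20 without IBET151-VHL replicate 3. The largest falls with IBET151-VHL were PSMC1 (-4.93), PSMC3 (-4.61), PSMG1 (-4.51), PSME1 (-4.33), PSMC4 (-3.76) and PSMD10 (-3.49).

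Between compounds in the nucleus, 43 of 44 genes had fewer T>C reads with IBET151-VHL than with IBET151 (81.4% of all genes lower), led by PSME1 (-5.36), PSMG1 (-5.20), PSMC1 (-5.10), PSMD10 (-4.54), PSMC3 (-4.38) and PSMD5 (-3.94), and PSMG4 did not pass (-1.61, adjusted p = 0.0719). With JQ1-VHL against JQ1 the count was 1, PSMG1 (-2.38 ± 0.84, adjusted p = 0.0394), where 13% of all genes were lower. It was 0 without replicate 1 of DMSO, JQ1 or JQ1-VHL, JQ1 replicate 2 or 3 or either IBET151 replicate, 4 without JQ1-VHL replicate 2 and 2 without JQ1-VHL replicate 3. JQ1-VHL had more T>C reads than IBET151-VHL for 8 genes (11% of all genes higher): PSMC1 (3.59), PSMD10 (2.72), PSMC3 (2.69), PSMD5 (2.49), PSME1 (2.40), PSMD4 (2.19), PSMB6 (2.15) and PSMB7 (1.93). That count was 38 without JQ1-VHL replicate 1, 1 without JQ1-VHL replicate 2 or 3 or IBET151-VHL replicate 1, 4 without IBET151-VHL replicate 3, and 5 without DMSO replicate 1, JQ1 replicate 1 or either IBET151 replicate. With a block for the runs of library numbers 26 genes were lower with JQ1-VHL than with JQ1 and 36 higher than with IBET151-VHL. The percentages of all genes in this paragraph are from fits without a block. In all reads of the nucleus 0 of 46 genes passed between JQ1-VHL and JQ1, IBET151-VHL and IBET151, or JQ1-VHL and IBET151-VHL, where 0.298%, 0.541% and 0% of all genes were called. Unadjusted p was under 0.05 for 0 genes in each, and edgeR and DESeq2 called 0. With the replicate number as a block, which left replicate 3 unmatched by run, 1 gene was lower with JQ1-VHL than with JQ1. Between IBET151-VHL and IBET151, with 2 pairs that were not treated as paired, that block gave 45 genes lower. Same-numbered libraries of these groups came from different runs of library numbers, so the 45 rests on unmatched libraries. A block for the runs, which matches them, gave 2.

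Whether T>C reads fell by different amounts in the fractions was tested as the nuclear change minus the cytoplasmic change. PSMB8, PSMB10, PSME1, PSME2 and PSMG4 reached the minimum only through nuclear libraries and had 0 to 4 T>C reads summed over the DMSO cytoplasmic libraries. A cytoplasmic fall of these 5 genes was not detectable at this depth, so their difference between fractions says nothing of unequal falls. With JQ1-VHL the 2 genes that passed, PSMB10 and PSMB8, were both among them (4.96% of all genes differed towards a larger nuclear fall). With IBET151-VHL PSMG1, outside them, differed towards a larger nuclear fall, where 23.7% of all genes did, and PSMD3 the other way, where 1.57% did. edgeR and DESeq2 called 0 of the 44 genes in either test.

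Without compound, the median proteasome gene had nearly equal values in nucleus and cytoplasm. The median log2 difference of DMSO nuclear minus cytoplasmic values over the 46 genes was -0.02, beside 1.26 over all 14458 genes. PSME4 (1.48 ± 0.52, adjusted p = 0.0162) was higher in the nucleus and 0 genes were lower, where 48.4% of all genes were called. PSMA8 passed too (2.28), but it reached the minimum of 10 in nuclear libraries alone, so that direction was built into its selection. PSME4 was read at 3874, 5425 and 8719 in nuclear and 2330, 2350 and 1538 in cytoplasmic libraries, which do not overlap. The number called, 2 with PSMA8, was 6 without DMSO nuclear replicate 1, 1 without DMSO nuclear replicate 3 and 0 without DMSO cytoplasmic replicate 3. The level between fractions rests on the spike-in: with median-ratio scaling 33 genes were lower in the nucleus and 0 higher, with a median of -1.16 against 0.14 over all genes. T>C reads were higher in the nucleus for 39 of the 39 genes that did not enter through nuclear libraries alone (93.6% of all genes higher). Under median-ratio scaling they were higher for 6 and lower for 1. Shares of all genes called under median-ratio scaling are not given, so the counts with it show only that the calls depend on scaling. The nuclear T>C share ran from 1.18% for PSMB10 to 13.2% for PSMG4.

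Of 31 other genes of the pathway (accessory cap subunits, ubiquitin genes, shuttles, the VHL ligase and regulators of proteasome genes), all reads in the cytoplasm were lower for 1 with JQ1-VHL and 3 with IBET151-VHL, 0 with JQ1 and 0 with IBET151, and 0 were higher. These shares lie below the 12.9%, 15.8%, 4.82% and 2.52% of all genes called, so they are no result about the pathway. For JQ1 and IBET151 unadjusted p was under 0.05 for 0 genes and edgeR and DESeq2 called 0, and with JQ1 1 gene passed without DMSO replicate 2. NFE2L2, a transcription factor of the antioxidant response, fell by 0.89 on the log2 scale (limma adjusted p = 0.0248) with JQ1-VHL and by 1.11 (0.00458) with IBET151-VHL. With IBET151-VHL, AKIRIN2, which brings proteasomes into the nucleus (-0.81, 0.0119), and ZFAND5, a proteasome activator (-0.72, 0.00903), were also lower. For JQ1-VHL, 0 genes passed when replicate 1 or 3 of that group or DMSO replicate 2 was left out, and 3 without DMSO replicate 3. For IBET151-VHL 6 passed without DMSO replicate 3 and 5 with the replicate number as a block. When each comparison was fitted alone 0 passed with JQ1-VHL and 1 with IBET151-VHL, NFE2L2 (adjusted p = 0.0261). T>C reads in the cytoplasm were lower for 22 of 28 genes with each VHL compound, 4 with JQ1 and 1 with IBET151, beside 82.8% and 88.3% of all genes with JQ1-VHL and IBET151-VHL, 20.1% with JQ1 and 6.76% with IBET151, so these shares too were not above those of all genes. The JQ1 number was 1 without DMSO replicate 1 or 2 or JQ1 replicate 3 and 2 without JQ1 replicate 1, and the IBET151 number was 0 without DMSO replicate 1 or 2 or IBET151 replicate 2 and 2 without JQ1-VHL replicate 1.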

How the data were processed

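Polyadenylated 3′-end libraries were read as 100 bp single reads. The deposited signal values were scaled by the authors to ERCC spike-in RNA, per the labels' protocols. The submitters' processing notes name bcl2fastq, Trimmomatic 0.39, HISAT2, HTSeq and DESeq2 and the builds hg19 and dm3. The method of T>C calling and the use of strand in counting are not given in the sources used here. All deposited values were whole multiples of 1 step per library (100% within 0.001), which recovered the reads. Cells of Drosophila S2 (10%) were also added and not used here.

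Values were analysed as log2(value + 1) with limma 3.58.1 (R 4.3.3), trend on, over the 14 libraries of a fraction, or all 28 for fraction effects, for genes with a value of at least 10 (T>C reads: 5) in at least 2 libraries, with Benjamini-Hochberg adjustment over all genes at 0.05. The T>C share was fitted as log2((T>C + 1)/(all + 1)). Fits were tested on simulated data in which a minority of genes changed, in either direction. That setting does not cover a fall of most genes. Intervals (95%, exact) and floors of 3 counts cover counting error only, since reads carry no molecular identifiers. Alternatives were edgeR 4.0.16 and DESeq2 1.42.0 on recovered reads, pseudocounts, filters, median-ratio scaling, smaller fits, blocks and left-out libraries.

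Members, lists and tests were chosen with earlier results of these data known. A pathway gene and a marker gene are not reported here. Named were up to 6 passing genes in each direction (12 in the main VHL comparisons), or the 3 with the smallest p where fewer than 3 passed, the catalytic, immunoproteasome, activator, inhibitor and assembly genes, and up to 4 pathway genes. Replicate numbers come from the titles. Same-numbered libraries deviated together for all reads (r of 0.105 to 0.739 over the pairs of JQ1-VHL, IBET151-VHL, JQ1 and DMSO) and for nuclear T>C reads and T>C shares of JQ1 and DMSO (0.221 to 0.455), but not for the other T>C comparisons; IBET151 gives 2 pairs and was not treated as paired.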

Additional observations from a re-analysis of the deposited data

Results flagged for a closer look

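For the change in T>C reads against DMSO, a limma interaction of compound and fraction over all 28 libraries called 2 genes with JQ1-VHL and 7 with IBET151-VHL (adjusted p under 0.05). The direction was open only for PSMG1 and PSMD3, both with IBET151-VHL. Of all genes 4.96% differed towards a larger nuclear fall with JQ1-VHL. With IBET151-VHL 23.7% did, and 1.57% differed the other way. For PSMB10, PSMB8, PSME1, PSME2 and PSMG4 the DMSO cytoplasmic libraries held 0, 2, 4, 0 and 4 T>C reads. No cytoplasmic fall could be measured, which fixed their sign, so their values are a description and their passing is no result. With JQ1-VHL the nuclear minus cytoplasmic difference was -4.10 for PSMB10 and -2.80 for PSMB8. With IBET151-VHL it was -4.48 for PSME1, -3.40 for PSMB10, -3.31 for PSMB8, -2.83 for PSME2 and -2.83 for PSMG4. For PSMG1 it was -2.63 (limma adjusted p = 0.0472) and for PSMD3 2.48 (0.0366). PSMG1 had 5 cytoplasmic T>C reads in all with IBET151-VHL and 47 with DMSO. PSMD3 had 4 cytoplasmic T>C reads with IBET151-VHL and 233 with DMSO, and 332 and 1980 in the nucleus. The number of genes was 0 in edgeR and DESeq2 for both compounds. For JQ1-VHL it was 5 without JQ1-VHL nuclear replicate 1. It was 1 without DMSO nuclear replicate 2 or 3, JQ1-VHL nuclear replicate 3 or any cytoplasmic library other than DMSO replicate 3, JQ1 replicate 3 and JQ1-VHL replicate 2. For IBET151-VHL it was 3 without DMSO cytoplasmic replicate 1, and 4 without IBET151-VHL nuclear replicate 1, IBET151-VHL cytoplasmic replicate 1 or 3, DMSO nuclear replicate 2 or DMSO cytoplasmic replicate 2.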

How the results depend on the processing

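Numbers below are proteasome genes called, unless pathway genes are named. "Cyto" and "Nuc" are the fractions, and a pair of fractions means the difference between them. Shares of all genes under these settings are not given, so the numbers show only how the calls depend on the setting. With a pseudocount of 0.5, T>C reads gave 2 for JQ1 Cyto (pathway 2), 0 for IBET151 Cyto (pathway 0), 4 for JQ1-VHL against IBET151-VHL Cyto, 0 for JQ1-VHL against JQ1 Nuc and 1 for the JQ1-VHL difference between fractions, and T>C shares 2 for JQ1 Cyto and 1 for JQ1-VHL Nuc. With 5 they gave 15 (pathway 7), 4 (pathway 3), 0 for the VHL pair Cyto and 2 Nuc, and 15 for the IBET151-VHL difference between fractions, and shares 11 for JQ1 Cyto, 3 for IBET151 Cyto and 0 for JQ1-VHL Nuc. With no filter, all reads gave 0 for IBET151 Cyto, T>C reads 4 for JQ1 Cyto (pathway 2) and 0 for IBET151 Cyto, and shares 0 for JQ1-VHL Nuc. With a filter at 5 times the minimum, which tests fewer genes, all reads gave 1 for DMSO Nuc against Cyto; T>C reads in Cyto gave 17 for JQ1-VHL (pathway 11), 17 for IBET151-VHL (pathway 11), 5 for JQ1, 12 for JQ1-VHL against JQ1, 17 for IBET151-VHL against IBET151 and 4 for the VHL pair; JQ1 Nuc gave 0, the JQ1-VHL difference between fractions 0, and shares 17 for JQ1-VHL and 17 for IBET151-VHL Cyto.

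With median-ratio scaling, all reads in Cyto gave 2 for JQ1-VHL (pathway 2), 5 for IBET151-VHL, 0 for JQ1 and 0 for IBET151, and 33 for DMSO Nuc against Cyto. T>C reads in Cyto gave 1 for JQ1-VHL (pathway 2), 13 for IBET151-VHL (3 higher and 10 lower of 38 tested, pathway 12), 0 for JQ1 (pathway 0), 0 for IBET151 (pathway 0), 0 for JQ1-VHL against JQ1 and 4 for IBET151-VHL against IBET151. In Nuc they gave 5, 12 and 0 for JQ1-VHL, IBET151-VHL and JQ1, 0 and 6 for the VHL compounds against parents and 2 for the VHL pair; the differences between fractions gave 0 and 2, and DMSO Nuc against Cyto 7. Fitting only the groups compared gave, in all reads, 0 for JQ1 and 0 for IBET151 Cyto (pathway 0 for JQ1-VHL, 1 for IBET151-VHL); in T>C reads 2 for IBET151 Cyto (pathway 2), 0 for the VHL pair Cyto, 11 for JQ1-VHL Nuc, 0 for JQ1-VHL against JQ1 Nuc, 0 for the VHL pair Nuc and 1 for the JQ1-VHL difference between fractions; in shares 1 for IBET151 Cyto and 8 for JQ1-VHL Nuc.

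The replicate block gave, in all reads of Nuc, 2 for JQ1-VHL, 14 for IBET151-VHL, 5 for IBET151, 1 for JQ1-VHL against JQ1 and 45 for IBET151-VHL against IBET151; in T>C reads of Nuc 34 for JQ1-VHL, 8 for JQ1-VHL against JQ1 and 19 for the VHL pair (pathway 2 for IBET151 Cyto, and 5 for IBET151-VHL Cyto in all reads); and in shares 1 for IBET151 Cyto and 17 for JQ1-VHL Nuc. Where replicate numbers paired the libraries, the block moved no other number by over 1.5 times. No IBET151 library shared a run of library numbers with the same-numbered libraries of other treatments, so its numbers under this block rest on unmatched libraries. Replicate 3 of JQ1-VHL and IBET151-VHL also came from another run than replicate 3 of JQ1 and DMSO. The block with median-ratio scaling gave, in all reads, 7, 9, 2 and 2 for JQ1-VHL, IBET151-VHL, JQ1 and IBET151 Cyto (pathway 3 and 8 for the VHL compounds), 1, 2 and 1 for JQ1-VHL, IBET151-VHL and IBET151 Nuc, and 38 for DMSO Nuc against Cyto. In T>C reads it gave 1, 13, 0 and 0 in Cyto (pathway 2, 12, 0 and 0), 0 and 3 against parents, 5, 13 and 0 for JQ1-VHL, IBET151-VHL and JQ1 Nuc, 2 and 8 against parents, 2 for the VHL pair, 0 and 2 between fractions and 7 for DMSO. A block for the runs of library numbers gave, in all reads, 3, 3 and 2 for JQ1-VHL, IBET151-VHL and JQ1 Cyto (pathway 5 and 7), 5, 24, 13 and 7 for JQ1-VHL, IBET151-VHL, JQ1 and IBET151 Nuc, and 2 for IBET151-VHL against IBET151 Nuc; in T>C reads 4 for the VHL pair Cyto, 42 and 2 for JQ1-VHL and JQ1 Nuc, 26 for JQ1-VHL against JQ1, 36 for the VHL pair and 4 for the JQ1-VHL difference between fractions; in shares 39 and 1 for JQ1-VHL and JQ1 Nuc. On recovered reads edgeR gave 0 for IBET151 Cyto and 1 for JQ1-VHL Nuc when all were used, and for T>C reads 4 for JQ1 Cyto (pathway 2), 0 for IBET151 Cyto (pathway 0), 0 for JQ1 Nuc, 0 for JQ1-VHL against JQ1 Nuc and 0 and 0 between fractions. For all reads DESeq2 gave 4 for DMSO Nuc against Cyto (pathway 2 for JQ1-VHL Cyto), and for T>C reads 2 for IBET151 Cyto (pathway 2), 4 for the VHL pair Cyto and 19 Nuc, 0 for JQ1 Nuc, 3 for JQ1-VHL against JQ1 Nuc and 0 and 0 between fractions. Scaling, edgeR and DESeq2 were not run on shares, where scale cancels apart from the pseudocount and values are not counts.

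Leaving out 1 library gave ranges, in all reads, of 1 to 3 for JQ1-VHL and for IBET151-VHL Cyto, 0 to 2 for IBET151 Cyto, 0 to 1 for JQ1-VHL Nuc and 0 to 6 for DMSO Nuc against Cyto (pathway 0 to 3, 2 to 6 and 0 to 1 for JQ1-VHL, IBET151-VHL and JQ1). In T>C reads of Cyto they were 1 to 9 for JQ1 (pathway 1 to 5), 0 to 1 for IBET151 (pathway 0 to 2), 13 to 22 for JQ1-VHL against JQ1, 21 to 32 for IBET151-VHL against IBET151 and 1 to 6 for the VHL pair. In Nuc they were 6 to 29 for JQ1-VHL, 0 to 1 for JQ1, 0 to 4 for JQ1-VHL against JQ1 and 1 to 38 for the VHL pair, and between fractions 1 to 5 and 3 to 7. In shares they were 0 to 5 and 0 to 1 for JQ1 and IBET151 Cyto, and 0 to 25 and 17 to 44 for JQ1-VHL and IBET151-VHL Nuc. Single genes reversed under both scaling settings: PSMF1 (1.06) and PSMD13 (1.95) with IBET151-VHL Cyto T>C reads, and PSMG4 with IBET151-VHL against IBET151 Nuc (1.33, and 1.34 with the block). The cause was not tested. In the cytoplasm PSMB8, PSMB10, PSME1, PSME2 and PSMG4 had 0 to 4 T>C reads with DMSO, too few to show a fall.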
